A study of Mus musculus with 12 samples.

Results

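The genes of cholesterol synthesis, of its SREBP control and of fatty acid synthesis were examined in DDKC pancreatic tumor cells with and without rDKK3, the recombinant soluble form of DKK3. They were the 34 listed genes found by name among 57186 genes of the count table, and 33 of them had enough reads to be tested. DDKC lines were grown out of pancreatic tumors of mice that carry 2 knockout alleles of Dkk3 in every tissue and Ptf1aCre, a Cre driver of the pancreatic lineage. All groups shared this genotype. Lines DDKC_9750, DDKC_9790 and DDKC_9804, called lines A, B and C here, were each sequenced untreated and rDKK3-treated, in 2 libraries per line and condition and 12 libraries in all. The ages of the mice and the rDKK3 dose of these samples were not given in the sources used here. For general culture of the lines, the authors give medium with fetal bovine serum.

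Cells make cholesterol from acetyl-CoA through mevalonate, farnesyl diphosphate, squalene and lanosterol. SREBP transcription factors are held in the endoplasmic reticulum as precursors bound to SCAP. When sterols are scarce, SCAP carries them to the Golgi for cleavage, and the freed part binds sterol regulatory elements in the promoters of the pathway's enzymes. INSIG proteins hold SCAP back when sterols are plentiful. SREBP2, encoded by Srebf2, acts mainly on cholesterol genes, and the products of Srebf1 act mainly on fatty acid genes. ABCA1 and ABCG1, both targets of the oxysterol-sensing LXR receptors, export cholesterol. Cultured tumor cells can make their own sterols or take them from serum lipoproteins.

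The treated cells of every line were sequenced less deeply: untreated libraries held 7520741 to 24541083 counts and treated ones 3822987 to 11567095. Dkk3 had 0 reads in 11 of 12 libraries and 1 read in the other. Whether paired libraries stem from separate cultures is not given in the labels. Apart from a shift that set all higher-numbered libraries against their lower-numbered partners, paired counts agreed within sampling noise (mean residual deviance 0.764 times its degrees of freedom, 12979 genes). The 2 libraries of a pair were therefore summed and counted as 1 sample, and the 3 lines were the replicates. Epithelial and ductal markers were high, with summed levels from 5138 to 9947 CPM (counts normalised to library size) in untreated and from 4060 to 8277 CPM in treated libraries, although Epcam lay between 0.399 and 2.26 CPM. Acinar, fibroblast and leukocyte lists summed to at most 12.7, 13.4 and 47.2 CPM, endothelial and adipocyte lists to at most 20.9 and 0.138 CPM, and the acinar genes Cpa1, Cel and Pnlip and the macrophage genes Adgre1 and Lyz2 were at 0.

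In untreated cells, line B had the highest level of most of these genes. It was highest for 26 of 33 members (78.8%), whereas it was highest for 35.9% of all 15165 genes tested. Line A was highest for 3 members and line C for 4. Pmvk, which encodes phosphomevalonate kinase, differed 6.80-fold between the highest and the lowest line, and Mvd, which encodes the decarboxylase that follows it, differed 4.41-fold. Acly, which encodes the ATP citrate lyase that supplies cytosolic acetyl-CoA, differed 1.15-fold and Ebp, a sterol isomerase gene, 1.25-fold. These differences between lines were not tested because each line is 1 sample per condition.

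Levels of different genes were compared per kilobase of their canonical transcript. Scd2, a fatty acid desaturase gene, had the highest untreated mean with 445 CPM per kb ± 183 (SD, n = 3 lines), and Fdps, the farnesyl diphosphate synthase gene, followed with 351 ± 243. Their ranges over the lines overlapped. Next came Scd1 with 147 ± 104, the methylsterol oxidase gene Msmo1 with 135 ± 39.4, Insig1 with 132 ± 96.9, and Srebf2 with 121 ± 39.7, which did not differ beyond their spread. At the low end stood Mvk, the mevalonate kinase gene, with 6.93 ± 1.339 CPM per kb and Abca1 with 1.71 ± 1.60. Abcg1 had 9 reads in all 12 libraries together and at most 3 in any of them, which is at the floor of 3 counts, so no fold change is given for it. Reads carried no molecular identifiers, so this floor covers counting error only.

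**Figure D1:**
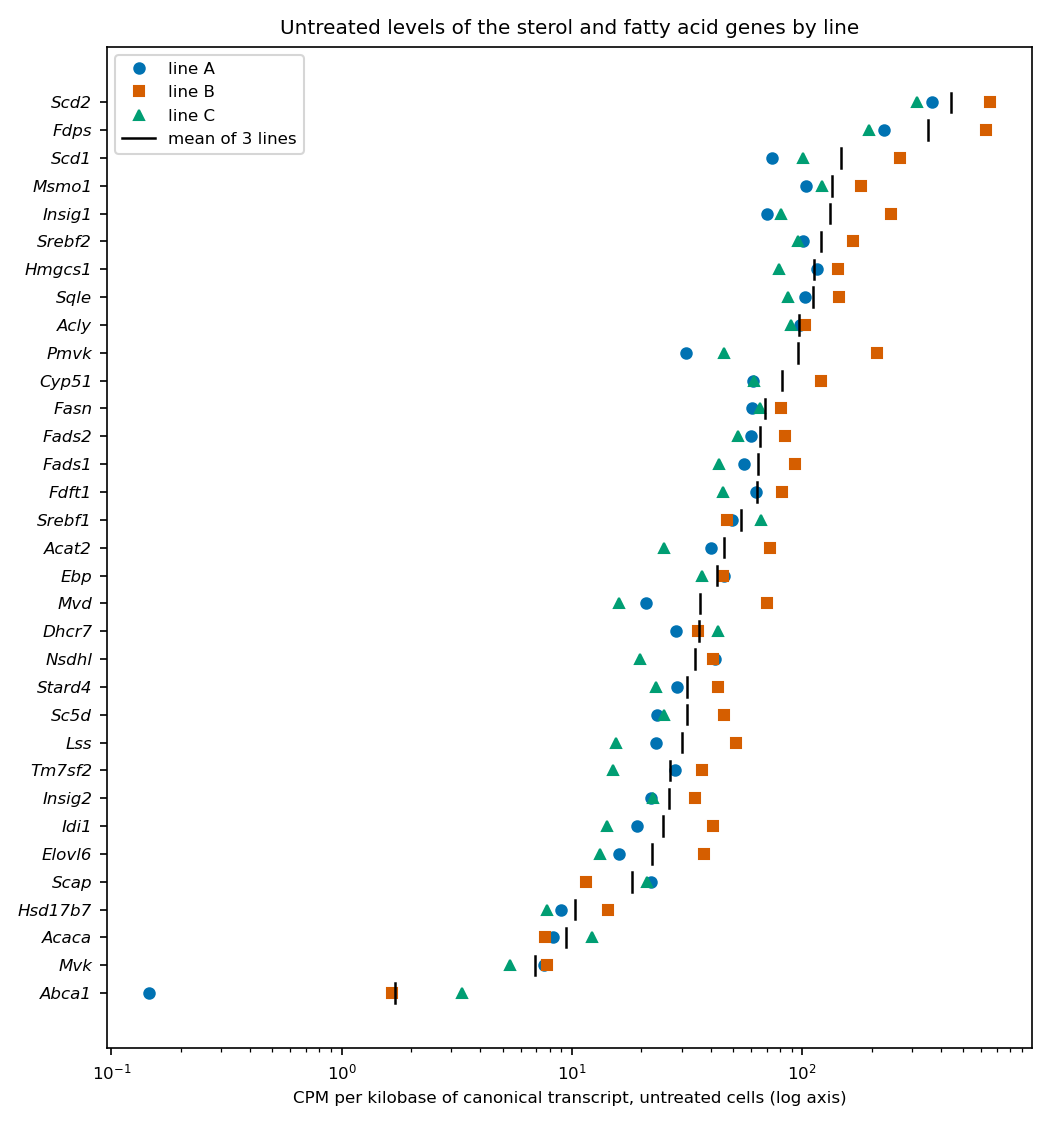
Untreated levels of the 33 tested members on a log axis in CPM per kilobase of canonical transcript, with 1 symbol per line and a bar at the mean of the 3 lines. Line B is the rightmost symbol for 26 members, and Abca1 lies far lower in line A than in the other lines.

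RefSeq promoters of the GRCm38.p6 assembly, from 250 bases before to 50 after each start, were found for 26 of the 34 member genes. The sterol regulatory element was searched as TCACNCCAC, the CCAAT box, which binds the SREBP partner NF-Y, as CCAAT and the E-box as CANNTG, each on both strands and without regard to overlaps between motifs. TCACNCCAC occurred in 1.24% of 32851 promoters, or in 1.44% of the 27025 genes with a promoter in the table. Among members it occurred in 1 of 26 genes, Hmgcs1, whose match TCACCCCAC starts at position -137 from the transcript start. CCAAT occurred in 20 of 26 member genes against 41.1% of all genes with a promoter in the table, and CANNTG in 19 of 26 against 75%. Promoters of 4 members at lower levels under rDKK3 and, for contrast, that of the LXR target Abca1 are shown, chosen after their values were seen, with matches to TCACNCCAC and CCAAT (or ATTGG on the other strand) in capitals. They lie at chr13:119690101-119690400 (+) for Hmgcs1, chr5:114444019-114444318 (+) for Mvk, chrX:72918271-72918570 (+) for Nsdhl, chr5:28071162-28071461 (+) for Insig1 and chr4:53159846-53160145 (-) for Abca1. These matches describe the letters of the windows and not sites of binding. Only exact matches inside the windows were counted, so an element with other letters or farther away would be missed. A window without a match is therefore no evidence that a gene lacks such an element. The Mvk window holds 5 CCAAT matches, the Hmgcs1 and Nsdhl windows 4 each, the Insig1 window 1 and the Abca1 window 0. Windows of Acat2, Elovl6 and Fads2, which were lower in all 3 lines, also hold 0, as do those of Acaca and Scap, which had mixed signs. A relation between these matches and the fold changes was not tested.
Hmgcs1: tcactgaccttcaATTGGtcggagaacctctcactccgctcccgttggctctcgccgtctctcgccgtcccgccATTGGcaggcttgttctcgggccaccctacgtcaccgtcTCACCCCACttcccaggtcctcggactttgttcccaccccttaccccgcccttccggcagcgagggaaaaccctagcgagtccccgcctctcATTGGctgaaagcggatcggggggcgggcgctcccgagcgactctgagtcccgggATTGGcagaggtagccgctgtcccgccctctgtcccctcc
Mvk: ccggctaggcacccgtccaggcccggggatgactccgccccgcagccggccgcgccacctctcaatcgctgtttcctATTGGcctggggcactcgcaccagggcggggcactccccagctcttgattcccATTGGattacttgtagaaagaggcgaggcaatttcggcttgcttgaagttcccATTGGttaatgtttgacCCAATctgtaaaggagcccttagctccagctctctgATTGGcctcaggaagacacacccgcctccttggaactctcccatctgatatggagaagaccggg
Nsdhl: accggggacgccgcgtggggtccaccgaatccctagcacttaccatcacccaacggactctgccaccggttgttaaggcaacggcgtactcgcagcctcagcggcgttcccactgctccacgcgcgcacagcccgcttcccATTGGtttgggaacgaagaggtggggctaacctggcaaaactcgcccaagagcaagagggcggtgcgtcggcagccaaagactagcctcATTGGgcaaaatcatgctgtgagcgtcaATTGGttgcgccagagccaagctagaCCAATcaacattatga
Insig1: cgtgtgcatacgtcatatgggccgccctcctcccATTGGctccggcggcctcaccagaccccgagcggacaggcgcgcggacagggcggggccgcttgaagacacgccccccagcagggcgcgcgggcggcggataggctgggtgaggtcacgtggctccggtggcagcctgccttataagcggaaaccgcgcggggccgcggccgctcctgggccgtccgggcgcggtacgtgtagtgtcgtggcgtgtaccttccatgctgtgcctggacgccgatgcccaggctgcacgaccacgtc
Abca1: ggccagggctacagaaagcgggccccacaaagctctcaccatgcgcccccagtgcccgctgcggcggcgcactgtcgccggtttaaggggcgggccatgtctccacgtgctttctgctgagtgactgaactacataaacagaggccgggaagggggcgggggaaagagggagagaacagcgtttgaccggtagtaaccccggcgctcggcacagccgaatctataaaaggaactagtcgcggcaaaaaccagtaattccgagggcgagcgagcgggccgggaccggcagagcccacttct

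Against untreated cells, 27 of the 33 tested members were lower in rDKK3-treated cells of all 3 lines, and 0 were higher in all 3, on TMM-normalized counts. By the alternative RLE scaling the first count was 25, because Sc5d and Scd1 in line C took small positive values. Among all 15165 genes tested, 18.2% were lower and 14.2% higher in all 3 lines. The median log2 fold change of the members was -0.46 and that of all genes tested -0.0054. By line, the members' median was -0.56 in A, -0.36 in B and -0.46 in C. In bulk RNA, fewer cells of a type and less RNA per cell cannot be told apart.

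No member passed the adjusted threshold in the main test, edgeR's quasi-likelihood test on the 3 pairs of summed libraries with the line as a block and Benjamini-Hochberg adjustment. Only 1 gene of 15165 passed it at all (0.00659%), Lcn2, which is not a member. At an unadjusted p under 0.05, 21 members were lower and 0 higher, beside 5.16% of all genes that were lower at that level, and the adjusted p of these 21 lay between 0.578 and 0.584. When edgeR took the 12 libraries as separate samples, 27 members were lower and 0 higher at an adjusted p under 0.05, beside 10.1% of all genes lower and 7.95% higher. That fit treats repeats of a pair as replicates, so its p-values measure a spread that may be technical. DESeq2 on the summed counts called 8 members lower, namely Acat2, Hmgcs1, Pmvk, Idi1, Fdps, Lss, Nsdhl and Insig1, beside 0.462% of all genes. Leaving out line B reduced the count at an unadjusted p under 0.05 from 21 to 13. Thinning all sums to the smallest total left that count at 21.

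Both treated libraries lay below both untreated ones for 27 members in line A and for 28 each in lines B and C. The same was seen for 35.2%, 31.2% and 39.3% of all genes tested in these lines. In every line at once it was seen for 24 members, against 8.51% of all genes. With CPM by the library total in place of TMM, the count in line B was 26, as Srebf2 and Acly overlapped there. Of the 7 epithelial and ductal markers, Krt7, Krt8, Krt18 and Krt19 were lower and Sox9 higher in the 12-library test by edgeR. Of the 6 macrophage and leukocyte markers, 2 had enough reads to be tested and 1 of them, Cd68, was higher in that test, and the list summed to 8.22 to 29.9 CPM in untreated and 9.06 to 47.2 CPM in treated libraries. Enough reads for a test were found for 1 of 6 acinar, 2 of 6 fibroblast, 1 of 3 endothelial and 0 of 3 adipocyte markers, and 0 of those tested passed it. The part of these markers in the members' values was not tested.

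**Figure D2:**
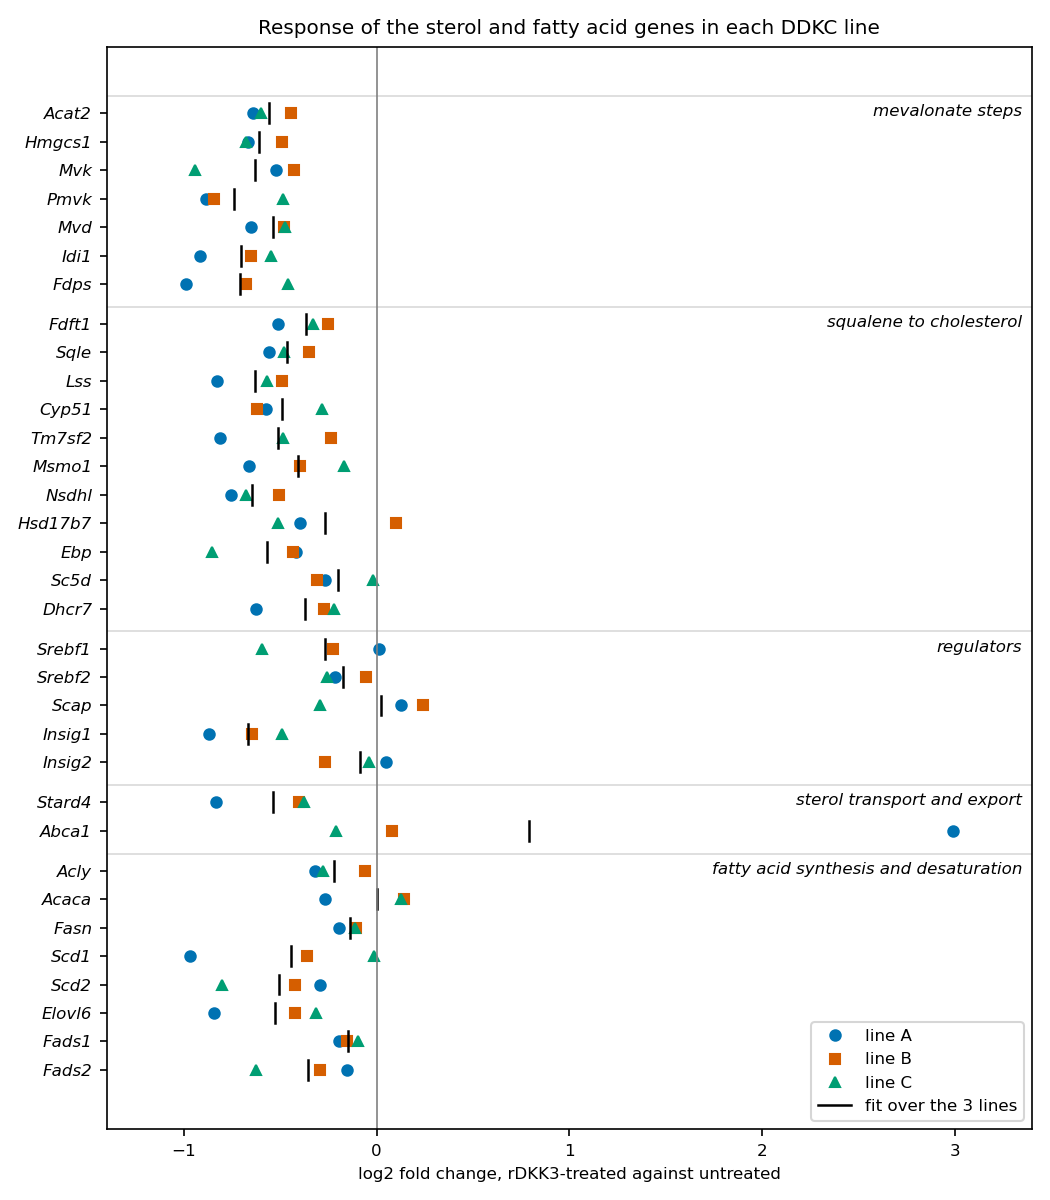
Log2 fold change of each tested member, rDKK3-treated against untreated, in lines A (circles), B (squares) and C (triangles), grouped by role, with a bar at the fitted value over the 3 lines. All symbols of the mevalonate genes lie left of 0, while Scap, Acaca and Abca1 have symbols on both sides.

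All 7 tested genes of the mevalonate steps were lower in all 3 lines, with a median log2 fold change of -0.63, and all 7 had an unadjusted p under 0.05. Among all genes tested, 18.2% were lower in all 3 lines and 5.16% were lower at that unadjusted p. Hmgcs1, at chr13:120151915-120169796 of GRCm39, encodes the HMG-CoA synthase that starts the committed pathway. It had 499 and 469 CPM in the untreated and 298 and 302 CPM in the treated libraries of line A. In line B the values went from 614 and 573 to 424 and 408 CPM, and in line C from 328 and 326 to 203 and 205 CPM. Treated and untreated libraries were separate in each line, by a similar proportion. The fitted log2 fold change of Hmgcs1 was -0.61 ± 0.12 (SE, 3 lines, adjusted p = 0.578 by edgeR), which is 34.5% lower. By line it was -0.67 in A, -0.49 in B and -0.68 in C. In the 12-library fit its adjusted p by edgeR was 5.68e-05, and by DESeq2 on summed counts it was 0.00207.

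Pmvk had the largest decrease in the fitted value among the members, with a log2 fold change of -0.74 ± 0.13 (SE, adjusted p = 0.578 by edgeR) and values of -0.89, -0.84 and -0.49 in lines A, B and C. Its starting levels differed widely between lines, and it went from 37.4 and 37.5 to 19.6 and 20.4 CPM in line A and from 256 and 252 to 139 and 142 CPM in line B. Mvk went from 26.5 and 26.5 to 13.8 and 13.7 CPM in line C, its strongest response, with log2 fold changes of -0.52 in A, -0.43 in B and -0.94 in C. The fitted value of Mvk was -0.63 ± 0.15 (SE, adjusted p = 0.578 by edgeR). Treated and untreated libraries of both kinase genes were separate in all 3 lines, while the line with the strongest response differed. Mvd gave a fitted value of -0.54 ± 0.11 (SE, adjusted p = 0.578 by edgeR), with -0.65, -0.48 and -0.48 in lines A, B and C. Acat2, the cytosolic thiolase gene, gave -0.56 ± 0.11 (SE, adjusted p = 0.578 by edgeR), with -0.64, -0.44 and -0.60.

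Fdps showed its strongest response in line A, where CPM went from 264 and 319 to 131 and 161, and its weakest in line C, where it went from 218 and 273 to 163 and 199.6. Its log2 fold changes were -0.99, -0.68 and -0.46 in lines A, B and C, and its fitted value was -0.71 ± 0.14 (SE, adjusted p = 0.578 by edgeR). Idi1, the isopentenyl diphosphate isomerase gene, had a similar fitted value of -0.70 ± 0.13 (SE, adjusted p = 0.578 by edgeR), with -0.92, -0.65 and -0.55 by line, but its libraries overlapped in every line. In line B, untreated libraries held 61.6 and 126 CPM of Idi1 and treated ones 41.0 and 83.7 CPM. Higher-numbered libraries of Idi1 exceeded their lower-numbered partners by 1.04 on the log2 scale on average, and each treated library lay below the untreated library of the same series. Its adjusted p by edgeR was 0.185 over 12 libraries and 0.000751 with the library series in the model. Processed pseudogenes of Idi1 held at most 75 reads each over all libraries.

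**Figure D3:**
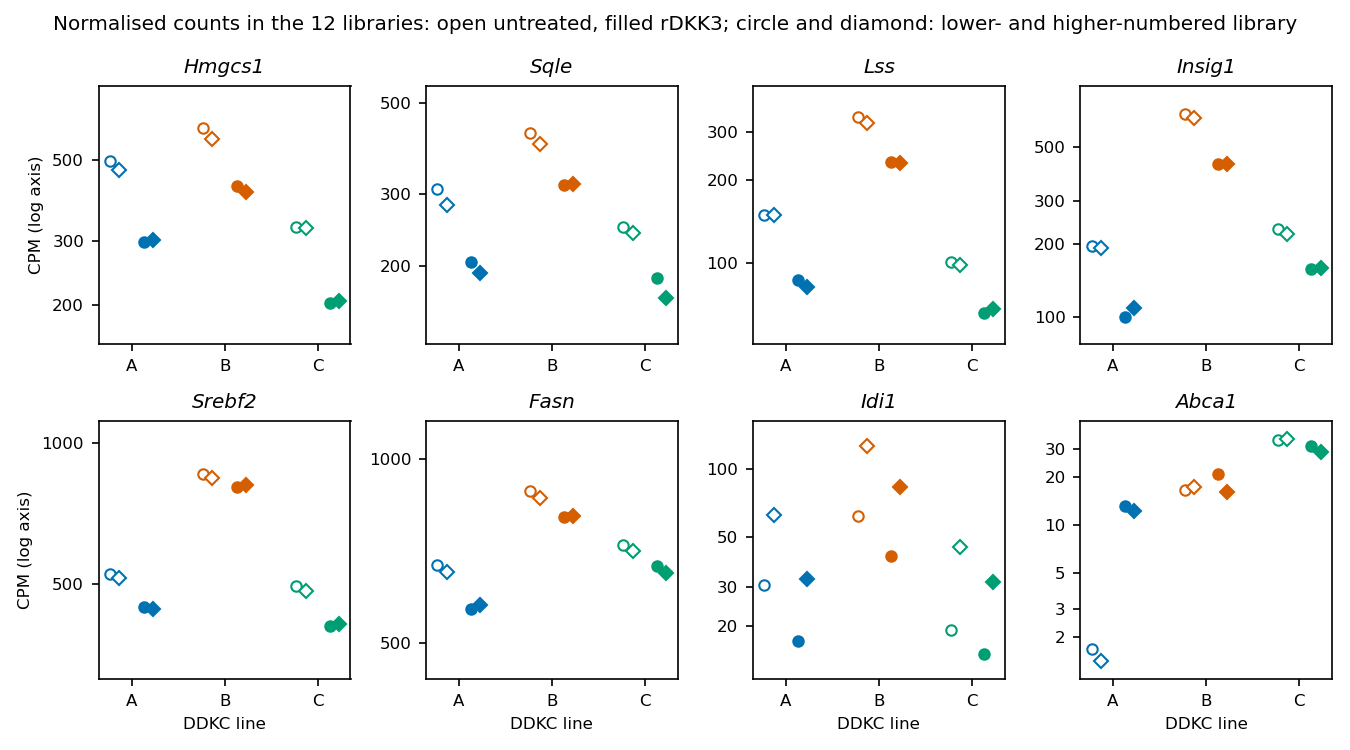
CPM on log axes of 8 members in each of the 12 libraries, open symbols untreated and filled symbols rDKK3-treated, with circles for the lower-numbered and diamonds for the higher-numbered library of a pair. Hmgcs1, Sqle, Lss and Insig1 have separate groups in each line, Idi1 has a gap between circles and diamonds, and the treated libraries of Abca1 lie above the untreated ones in line A, overlap with them in line B and lie below them in line C.

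From squalene to cholesterol, 10 of 11 genes were lower in all 3 lines, 9 had an unadjusted p under 0.05, and the median log2 fold change was -0.46. The shares of all genes tested were 18.2% lower in all 3 lines and 5.16% lower at that unadjusted p. Lss, the lanosterol synthase gene, went from 149.6 and 149.8 to 86.8 and 81.6 CPM in line A. In line B it went from 339 and 323 to 234 and 231 CPM, and in line C from 101 and 98.9 to 66.0 and 68.0 CPM. No treated library of Lss reached an untreated one of its line. The fitted value was -0.63 ± 0.12 (SE, adjusted p = 0.578 by edgeR), with -0.83, -0.49 and -0.57 in lines A, B and C. Nsdhl, a sterol dehydrogenase gene on chromosome X, had the smallest p of the members in the main test, with -0.65 ± 0.11 (SE, adjusted p = 0.578 by edgeR), and log2 fold changes of -0.76, -0.51 and -0.68 in lines A, B and C.

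Sqle, which encodes the squalene epoxidase that is a control point of the pathway, was 27.5% lower by the fit. It went from 309 and 282 to 205 and 192 CPM in line A, from 423 and 397 to 315 and 317 CPM in line B and from 249.3 and 241 to 187 and 167 CPM in line C. Untreated and treated libraries of Sqle were again separate in each line. Its fitted value was -0.46 ± 0.11 (SE, adjusted p = 0.578 by edgeR), with -0.56, -0.35 and -0.48 by line. Squalene synthase, encoded by Fdft1, had a smaller difference, with a fitted value of -0.37 ± 0.12 (SE, adjusted p = 0.578 by edgeR) and -0.51, -0.25 and -0.33 by line.

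The remaining genes of these steps varied in which line responded most. Ebp had its largest change in line C, with -0.42, -0.43 and -0.85 in lines A, B and C and a fitted value of -0.57 ± 0.14 (SE, adjusted p = 0.578 by edgeR). Tm7sf2, a sterol reductase gene, had its largest in line A, with -0.81, -0.24 and -0.49 and a fitted value of -0.51 ± 0.16 (SE, adjusted p = 0.578 by edgeR). Cyp51, the lanosterol demethylase gene, had similar values in lines A and B (-0.58 and -0.62) and -0.28 in line C, with a fitted value of -0.49 ± 0.13 (SE, adjusted p = 0.578 by edgeR). In contrast to Ebp, both Msmo1 and Dhcr7, whose product completes cholesterol by a last reduction, had their smallest difference in line C. Msmo1 had -0.66, -0.40 and -0.17 by line and a fitted value of -0.41 ± 0.14 (SE, adjusted p = 0.578 by edgeR). Dhcr7 had -0.63, -0.27 and -0.22 and a fitted value of -0.37 ± 0.13 (SE, adjusted p = 0.578 by edgeR).

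Members at the end of the order were Sc5d and Hsd17b7. The sterol desaturase gene Sc5d had -0.27, -0.31 and -0.021 in lines A, B and C, and its libraries overlapped in line C (untreated 128 and 119.6, treated 128 and 116 CPM), with a fitted value of -0.20 ± 0.12 (SE, adjusted p = 0.658 by edgeR). The sterol ketoreductase gene Hsd17b7 was the 1 enzyme of the 18 sterol genes with mixed signs. It had 69.6 and 64.6 CPM untreated and 73.2 and 69.0 CPM treated in line B, which overlapped, while its log2 fold changes were -0.40 in line A and -0.51 in line C. Its fitted value was -0.27 ± 0.16 (SE, adjusted p = 0.663 by edgeR).

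Regulators of the pathway differed among themselves. Insig1, itself a target of SREBP, was lower like the enzymes, from 196 and 193 to 100.2 and 109 CPM in line A, from 686 and 658 to 425 and 424 CPM in line B and from 229 and 219.6 to 157 and 159 CPM in line C. Its fitted log2 fold change was -0.67 ± 0.13 (SE, adjusted p = 0.578 by edgeR), 37.1% lower, with -0.87, -0.64 and -0.49 in lines A, B and C and an adjusted p of 0.00629 by DESeq2. Its relative Insig2 had 0.047, -0.27 and -0.040 in the 3 lines and a fitted value of -0.088 ± 0.12. Insig2 libraries overlapped in lines A and C.

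Srebf2 differed little in size, with log2 fold changes of -0.21, -0.054 and -0.26 in lines A, B and C. In TMM-normalized CPM its libraries did not overlap in any line, with 860.4 and 841 CPM untreated and 806 and 816 CPM treated in line B, where the gap was narrowest. Scaled by the library total alone, they overlapped in line B, with 829 and 797 CPM untreated and 815 and 806 CPM treated. The fitted value was -0.17 ± 0.12 (SE, adjusted p = 0.691 by edgeR). Srebf1 had 218 and 215 CPM untreated and 222 and 214 CPM treated in line A, which overlapped, but 286 and 288 against 188 and 191 CPM in line C. The log2 fold changes of Srebf1 were 0.012, -0.22 and -0.60 by line, and its fitted value was -0.27 ± 0.15 (SE, adjusted p = 0.65 by edgeR). Scap had opposite signs, going from 96.2 and 92.9 to 104 and 101 CPM in line A and from 90.4 and 89.3 to 69.9 and 74.9 CPM in line C. Its fitted value was 0.023 ± 0.14 (SE), and this sign turned when line A or line B was left out.

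Among transport genes, Stard4, which encodes a cytosolic sterol carrier, was lower in all 3 lines. It went from 161 and 148 to 82.5 and 87.0 CPM in line A, with log2 fold changes of -0.83, -0.40 and -0.38 in lines A, B and C and a fitted value of -0.54 ± 0.14 (SE, adjusted p = 0.578 by edgeR). Abca1 differed from Stard4, with log2 fold changes of 2.99, 0.080 and -0.21 in lines A, B and C. In line A, where Abca1 was lowest without treatment, it went from 1.66 and 1.41 to 13.1 and 12.2 CPM. With the prior count of 2, this is a 7.94-fold higher level. It had 16.6 and 17.2 CPM untreated and 20.7 and 16.2 CPM treated in line B, which overlapped, and 33.98 and 34.5 against 31.3 and 28.7 CPM in line C, which were lower. The fitted log2 fold change of Abca1 was 0.79 ± 0.66 (SE, adjusted p = 0.743 by edgeR), and without line A it was -0.059.

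Of the 8 genes for fatty acid synthesis and desaturation, 7 were lower in all 3 lines, 3 had an unadjusted p under 0.05, and the median was -0.29. Beside them, 18.2% of all genes tested were lower in all 3 lines and 5.16% were lower at that unadjusted p. Fasn, the fatty acid synthase gene, was 9.09% lower by the fit, with 887 and 864 CPM untreated and 805 and 806 CPM treated in line B and a fitted value of -0.14 ± 0.11 (SE, adjusted p = 0.737 by edgeR). By line, Fasn had -0.19, -0.11 and -0.11. Acly had -0.32, -0.061 and -0.28, with a fitted value of -0.22 ± 0.12 (SE, adjusted p = 0.643 by edgeR). Acaca, the acetyl-CoA carboxylase gene, had -0.27, 0.14 and 0.13, and its libraries overlapped in each line, with the higher-numbered ones 0.62 above their partners on the log2 scale on average. These 3 genes of the first steps had small differences, each with a fitted value of under 2 standard errors.

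Of the desaturase and elongase genes, Elovl6, Scd2 and Fads2 had an unadjusted p under 0.05. Scd1 and Scd2, neighbours on chromosome 19 that encode stearoyl-CoA desaturases, had opposite orders over the lines. Scd1 had log2 fold changes of -0.97 in line A, -0.36 in B and -0.012 in C, and Scd2 had -0.30, -0.42 and -0.81. In line C, Scd1 stayed at 523 and 502 CPM untreated and 516 and 498 CPM treated, while Scd2 went from 1755 and 1703 to 1012 and 966 CPM. The fitted value of Scd1 was -0.45 ± 0.21 (SE, adjusted p = 0.617 by edgeR) and that of Scd2 -0.51 ± 0.15 (SE, adjusted p = 0.578 by edgeR). The difference between the lines was not tested. Elovl6, a fatty acid elongase gene, had a fitted value of -0.53 ± 0.14 (SE, adjusted p = 0.578 by edgeR), with -0.84, -0.42 and -0.31 by line. Fads1 and Fads2 encode desaturases of polyunsaturated fatty acids. Fads2 had -0.36 ± 0.14 (SE, adjusted p = 0.584 by edgeR), with -0.16, -0.30 and -0.62 in lines A, B and C, and Fads1 -0.15 ± 0.11 (SE, adjusted p = 0.709 by edgeR), with -0.20, -0.15 and -0.097.

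**Figure D4:**
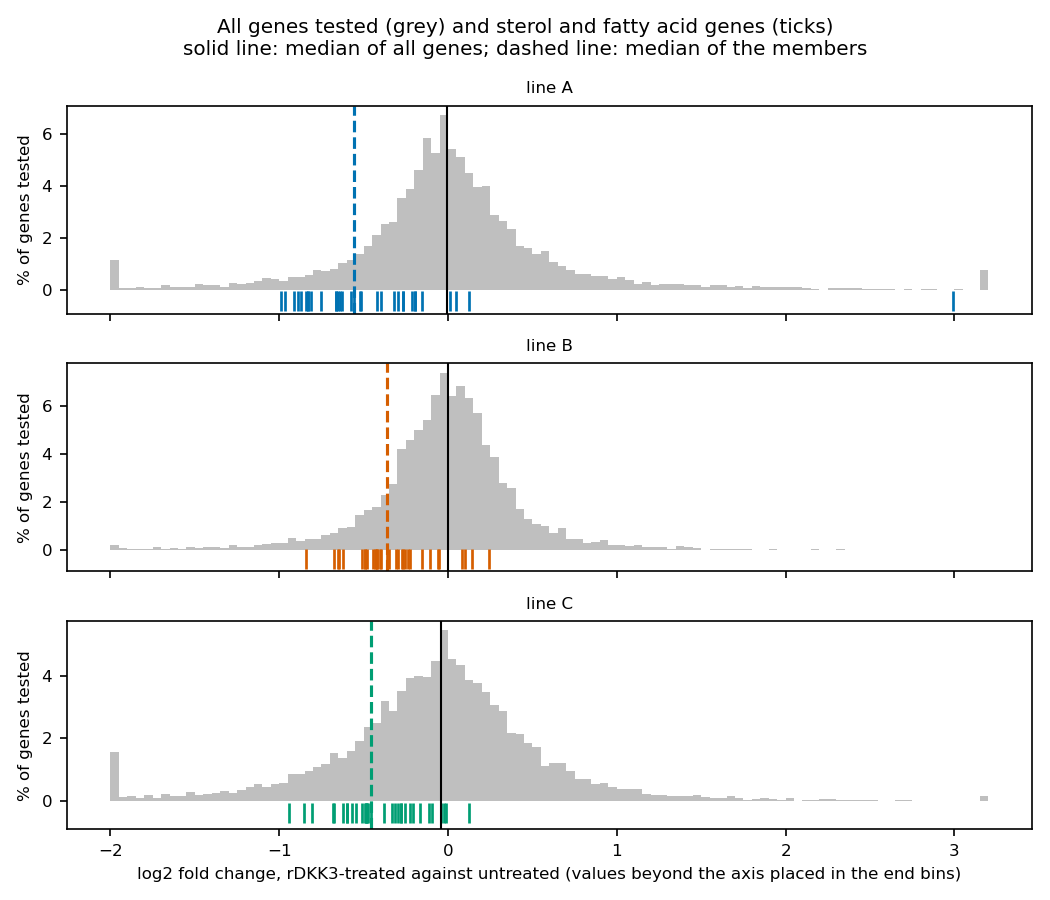
Distribution of the log2 fold changes of all 15165 genes tested (grey, percent of genes) in each line, with ticks for the 33 members, a solid line at the median of all genes and a dashed line at that of the members. The members' medians lie at -0.56, -0.36 and -0.46 in lines A, B and C, left of the medians of all genes, while most members stay within the spread of the other genes.

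Across the 33 members, the log2 fold changes of 2 lines correlated with r = 0.567 for A and B, 0.437 for B and C and 0.212 for A and C. Over all 15165 genes tested these values were 0.0800, 0.245 and -0.032. They are descriptions across genes, which are not independent and share their libraries and depth. In line A the log2 fold change farthest from 0 was that of Abca1 (2.99, higher), while the next highest member was Scap with 0.12. The correlations of line A with B and C include this outlying value of Abca1, and r without it was not computed. The strongest decreases in line A were those of Fdps, Scd1, Idi1, Pmvk and Insig1. In line C the strongest decreases were those of Mvk, Ebp and Scd2.

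Neighbouring pathways were read from other lists, to be set against the 18.2% of all genes tested that were lower and the 14.2% that were higher in all 3 lines. Of 8 genes for the non-sterol branches of the mevalonate pathway, such as prenylation and dolichol synthesis, 0 were lower and 1 was higher in all 3 lines, and the median was -0.0058. Of 6 genes for SREBP cleavage and sterol-regulated degradation, 0 were lower and 1 higher in all 3 lines, with a median of 0.052, and Erlin1 was the 1 that passed the 12-library test (higher, adjusted p = 0.0476 by edgeR), which 7.95% of all genes passed in that direction. Of 9 LXR and sterol ester genes, 0 had the same sign in all 3 lines, and the median was 0.0012. These 3 medians over the lines lie near that of all genes tested. By line, however, the LXR and sterol ester list had medians of 0.30 in A, -0.070 in B and -0.20 in C. In line A, both treated libraries lay above both untreated ones for 7 of the 9 genes (4922 of all 15165) and below for 1. These 7 include Ch25h, described below, and Mylip. Mylip had only 2 and 4 reads untreated and 1 and 3 reads treated in line A, about the floor of 3 counts. In line C both treated libraries lay below both untreated ones for 6 genes (39.3% of all genes) and above for 2. This difference between lines was not tested.

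Within the LXR and sterol ester list, Ch25h encodes the enzyme that makes the oxysterol 25-hydroxycholesterol. It had 3 and 5 reads untreated and 99 and 131 reads treated in line A, which is 0.262 and 0.271 against 24.9 and 20.7 CPM. In lines B and C it had 0 to 2 reads in any library. Treated libraries of both Ch25h and Abca1 thus lay above the untreated ones in line A, while Hmgcs1, Lss and Insig1 were lower in all 3 lines. Ch25h passed the low-count filter through the treated libraries of line A, so no test is given for it. It is counted in the list's values above, but its signs in lines B and C rest on these few reads.

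Other lipid synthesis genes resembled the members in part. Of 17 tested, 10 were lower and 2 higher in all 3 lines, 9 were lower and 1 higher in the 12-library test, and the median was -0.25. The shares of all genes tested were 18.2% lower and 14.2% higher in all 3 lines, and 10.1% lower and 7.95% higher in the 12-library test, so the counts of higher genes were near the background. Me1, the malic enzyme gene that supplies NADPH, went from 949 and 1114 to 624 and 749.6 CPM in line B and from 244 and 287 to 105 and 128 CPM in line C. Its fitted value was -0.80 ± 0.17 (SE, adjusted p = 0.578 by edgeR). Aacs, which encodes a synthetase that turns acetoacetate into a sterol precursor, had -0.58 ± 0.11, and log2 fold changes of -0.46, -0.57 and -0.71 in lines A, B and C. Acsl4, a ligase gene for polyunsaturated fatty acids, was higher in all 3 lines, with a fitted value of 0.41 ± 0.16 (SE, adjusted p = 0.584 by edgeR).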

How the data were processed

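RNA of 3 DDKC lines, untreated or rDKK3-treated, was measured in 12 libraries. The authors sequenced strand-specific libraries with 50-base paired reads, used STAR 2.7.9a for alignment to GRCm39, counted alignments on GENCODE exons with GenomicAlignments in Union mode by strand, and deposited raw counts per gene without normalization. Their processing notes also list DESeq2 1.38.0, R 4.2.2 and Picard 2.19.2. The model formula was not given in the sources used here. Counting by unique overlap may lose reads that genes share.

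From the deposited counts, 92 spike-in rows, all with 0 counts, were left out. Libraries of a line and condition were summed and tested with edgeR 4.0.16 in R 4.3.3: TMM normalization, edgeR's own low-count filter, given the 6 line-by-treatment groups (15165 genes), line and treatment in a quasi-likelihood model, Benjamini-Hochberg adjustment over all genes tested and a threshold of 0.05. Treated and untreated cells were paired by the line that the labels name. Deviations of treated and untreated libraries from their group means correlated with r = 0.822, 0.874 and 0.805 in lines A, B and C. Log2 fold changes of single lines are differences of log2 CPM with a prior count of 2 and have no test. Standard errors were derived from the F statistic. The scripts were tested on simulated data. Alternatives covered the 12 libraries as separate samples, the library series, RLE normalization, DESeq2 1.42.0, other filters and prior counts, thinning, no line block, and leaving out lines or libraries. Lengths of canonical transcripts came from a later GENCODE annotation of GRCm39, and promoters from RefSeq on GRCm38.p6, which was matched by symbol and never by coordinate.

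The members are all named, in groups by role, with full statistics for those with 1 sign in all 3 lines or past a test. The members, the other gene lists and the tests were chosen with earlier results of these data known. A further allele shared by all groups is not reported here.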

Additional observations from a re-analysis of the deposited data

Results flagged for a closer look

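Scap and Abca1 moved in opposite directions in different lines. Treated libraries of Scap lay above the untreated ones in lines A and B and below them in line C. Those of Abca1 lay above in line A and below in line C, and overlapped with the untreated ones in line B. The differences between lines were not tested. The log2 fold change of Scap was 0.419 higher in line A than in line C and 0.535 higher in line B than in line C. That of Abca1 was 3.20 higher in line A than in line C.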

How the results depend on the processing

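The main test called 1 gene and 0 members. The number of genes past an adjusted p of 0.05 was 2744 with 12 libraries, 3124 with the library series added, 103 with DESeq2, 90 without a filter on low counts, 6 after thinning to equal depth, 0 with no replicate block for the line, and 0 to 6 when a line or 1 library of each pair was left out. Members lower at that threshold were 27, 28, 8 and 1 (Pmvk) in the first 4 of these. Members lower at an unadjusted p under 0.05 were 21 in the main test, 0 with no replicate block for the line, and 13 to 21 when a line or library was left out, the lowest without line B. The cause was not tested, except that the 12-library fits have more samples.

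Signs turned for 4 members. Scap was -0.022 without a filter, where the median of all genes was -0.042, and -0.077 to 0.18 when a line or library was left out. Acaca was -0.043 without a filter and -0.061 to 0.14 with a line or library left out. Insig2 ranged from -0.15 to 0.012 in the same way. Abca1 ranged from -0.059 to 1.42, the lowest without line A. The members' median stayed between -0.51 and -0.38 under all alternatives run, and 24 to 28 members were lower in all 3 lines. Of 99 values for single lines, 2 changed sign under other prior counts or RLE normalization. Depth limits Abcg1 and Ch25h, which have few reads, and Mylip in line A.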
